A study of Mustela putorius furo and Mus musculus with 4 samples.

Results

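The 8 cholesterol synthesis enzymes described here are Hmgcs1, Idi1, Fdps, Fdft1, Sqle, Lss, Cyp51 and Dhcr7, taken by gene symbol. They were chosen with earlier results of these data known, so the counts below are not those of an independently chosen list. They are 8 of 17170 genes in the mouse table, and 7 of them are among the 22008 genes of the ferret table; ferret CYP51A1 was not analysed here. The mouse data are single-cell RNA-Seq libraries of E18 cortex of strain CD1, made from sorted cells that carried CellTrace Yellow, a dye put into the lateral ventricle the day before collection. There was 1 library of littermate controls (Smo F/F in the study's methods, wild type in the sample labels) and 1 library of the knockout (Smo-cKO; genotype hGFAP-Cre;Smo F/F), in which Cre, driven by the human GFAP promoter in radial glial (RG) cells, deletes Smo, the membrane transducer of Sonic Hedgehog (SHH) signaling. The ferret data are 2 sets of barcodes from the E39 cortex of 1 wild type embryo. The comparison of the mouse libraries addresses what loss of SHH-SMO signaling changes in cortical cells, and the ferret data give the same genes in a second species.

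Cells make cholesterol from acetyl-CoA through the mevalonate pathway, and SREBP2, a transcription factor held in the endoplasmic reticulum until sterols run low, switches on most of its enzymes together. The brain makes its own cholesterol because lipoprotein cholesterol hardly crosses the blood-brain barrier, and dividing progenitors and growing neurons both need it for membrane. Sterols also take part in Hedgehog signaling: SHH carries a cholesterol group and SMO binds sterols, and loss of DHCR7, the last enzyme of the route through 7-dehydrocholesterol, causes Smith-Lemli-Opitz syndrome.

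In the order of the pathway, HMGCS1 makes HMG-CoA at the entry of the pathway. IDI1 and FDPS make the isoprenoid building blocks, up to farnesyl diphosphate. FDFT1 (squalene synthase) commits farnesyl diphosphate to sterols, SQLE adds oxygen to squalene, and LSS closes the ring to lanosterol. CYP51 removes a methyl group of lanosterol and DHCR7 makes cholesterol itself. The mouse genes lie on different chromosomes except Hmgcs1 and Idi1, which are both on chromosome 13. In GRCm38, which is mm10, the GENCODE M21 annotation puts the protein-coding genes Hmgcs1 at chr13:119690379-119708260 (+), Idi1 at chr13:8885501-8892451 (+), Fdps at chr3:89093588-89101959 (-), Fdft1 at chr14:63145150-63179578 (-), Sqle at chr15:59315077-59331192 (+), Lss at chr10:76531588-76557138 (+), Cyp51 at chr5:4081145-4104746 (-) and Dhcr7 at chr7:143823145-143848410 (+).

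A barcode suffix was given a genotype because the number of its cells, 10524 for control and 7596 for Smo-cKO, equals the number the study states for that genotype. If that were wrong, every genotype direction below would turn round. The targeted gene itself went with the assignment: among RG-like cells Smo had 150 UMIs (14.3 CPM) in the control library and 5 UMIs (0.437 CPM) in the Smo-cKO library, and the pathway target Gli1 had 50 and 0 UMIs. The study's limits of 750 to 5000 genes and under 10% mitochondrial UMIs per cell left 10498 control cells with a median of 4033.5 UMIs and 7209 Smo-cKO cells with a median of 4836 UMIs, fewer than the numbers above, and 10185 and 13052 ferret cells with medians of 2556 and 3563 UMIs. Barcodes shared between the mouse libraries numbered 28, and those shared between the ferret sets 38. Levels are given in CPM, the UMIs of a gene scaled to 1000000 UMIs of its class and library, with 95% exact Poisson intervals, and ratios have exact binomial intervals. Neither interval holds more than counting error. The spread between animals was not measured with 1 library for each genotype, no test was possible, and a ratio of at least 1.5 in either direction stands in for a call. Since one UMI count does not correct for transcript length or capture, levels are compared between cells within a gene and never between genes.

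Classes were set from marker genes, none of which is a member, and a class is a range of marker numbers, not a cell type. A cell was RG-like when the list of 9 RG markers (such as Sox9, Slc1a3 and Fabp7) had the largest share of its genes detected, with at least 3. This gave 2049 RG-like control cells (median 4613 UMIs) and 1604 in Smo-cKO (median 6792 UMIs), with a median of 7 and 8 RG markers detected and a median of 0 markers of every other class. Cells at exactly 3 markers were 2.49% and 3.99% of these. Intermediate progenitor (IPC)-like cells numbered 2798 and 1687, and pyramidal neuron (PyN)-like cells 1747 and 1821, of which 52.1% and 44.6% had exactly 3 markers. RG-like cells with at least 3 cell cycle markers were kept apart as cycling RG-like cells (1425 and 638). Ferret RG-like cells were fewer and closer to the limit, 318 in set 1 and 457 in set 2, with 34.3% and 24.1% at exactly 3 markers.

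The enzymes were higher in mouse RG-like cells than in the neurons and neuronal progenitors of the same library. Summed over the 8 members, RG-like cells had 1307 CPM (1285 to 1329) in control and 1112 CPM (1092 to 1131) in Smo-cKO. Cycling RG-like cells followed with 1105 and 837 CPM. All other classes were lower and did not overlap with these: inhibitory neuron (IN)-like cells had 402 and 431 CPM, PyN-like cells 406 and 390 CPM, IPC-like cells 276 and 283 CPM, and microglia-like cells 134 and 94.4 CPM. The share of all genes that were highest in RG-like cells is not given here, so the next count has no background. Of the 8 members, 7 had their highest level in RG-like cells in each library. The exceptions were Sqle, which was highest in control cycling RG-like cells, and Fdft1, which was highest in Smo-cKO PyN-like cells; in both cases the intervals of the first and the second class overlapped.

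Hmgcs1, at the entry of the pathway, stood at 422 CPM in control and 331 CPM in Smo-cKO RG-like cells. Cycling RG-like cells had 331 and 228 CPM, IN-like cells 82.5 and 78.4 CPM, PyN-like cells 74.0 and 64.5 CPM, IPC-like cells 48.5 and 45.3 CPM, and microglia-like cells 23.8 and 20.1 CPM. RG-like and cycling RG-like cells thus stood apart from every other class in both libraries. The ratio of RG-like to PyN-like cells was 5.70 (5.20 to 6.27) in control and 5.13 (4.68 to 5.62) in Smo-cKO. In RG-like cells, at least 1 Hmgcs1 UMI was found in 68.8% (66.8 to 70.8, exact Clopper-Pearson) of the control and 66.4% (64.0 to 68.7) of the Smo-cKO library. The shares were 18.3% and 20.5% in PyN-like cells and 18.0% and 19.5% in microglia-like cells. With each cell thinned to 2500 UMIs, these shares were 53.4% and 44.9% of RG-like, 13.1% and 12.2% of PyN-like and 4.18% and 3.78% of microglia-like cells. No class is known to lack this enzyme, so the background from free RNA could not be read off. Microglia-like cells, with a median of 8258 and 7744 UMIs, give an upper limit only per cell. Their mean was 1.39 and 1.03 UMIs of the 8 members per cell. PyN-like cells had 1.58 and 1.78, IPC-like cells 1.23 and 1.48, and RG-like cells 6.70 and 7.94. The part of background in the low classes was not tested.

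Of the isoprenoid enzymes, Idi1 set RG-like cells apart more than Fdps did. Idi1 had 238 and 207 CPM in RG-like cells, 211 and 155 CPM in cycling RG-like cells, and only 20.0 and 12.4 CPM in PyN-like cells and 17.3 and 12.3 CPM in IPC-like cells. Its RG-like over PyN-like ratio, 11.9 (10.0 to 14.2) in control and 16.8 (13.8 to 20.6) in Smo-cKO, was above that of every other member. An Idi1 UMI was found in 5.84% and 4.78% of PyN-like cells and in 10.1% and 10.1% of the deeper microglia-like cells. The part of background in the PyN-like side of this ratio was not tested. Fdps had 274 and 251 CPM in RG-like cells, 241 and 202 CPM in cycling RG-like cells, 112 and 110 CPM in PyN-like cells and 84.4 and 91.8 CPM in IPC-like cells. RG-like cells were 2.44-fold (2.25 to 2.65) above PyN-like cells in control and 2.27-fold (2.11 to 2.45) in Smo-cKO.

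Fdft1, the first enzyme dedicated to sterols, did not follow the others. It had 111 and 112 CPM in RG-like cells and 104 and 116 CPM in PyN-like cells, so these classes lay within each other's counting error, with ratios of 1.06 (0.966 to 1.17) and 0.962 (0.884 to 1.05). IPC-like cells had less, 60.6 and 69.0 CPM, and microglia-like cells 20.5 and 5.18 CPM (19 and 9 UMIs).

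The squalene and lanosterol enzymes were again highest in RG-like or cycling RG-like cells. Sqle had 72.0 and 67.2 CPM in RG-like cells, 79.0 and 59.3 CPM in cycling RG-like cells, 29.3 and 28.9 CPM in PyN-like cells and 20.6 and 24.7 CPM in IPC-like cells. Lss, the least counted member, had 25.9 and 18.8 CPM in RG-like cells (272 and 215 UMIs), 17.4 and 11.9 CPM in cycling RG-like cells, and 12.1 and 10.8 CPM in PyN-like cells. In Smo-cKO the intervals of cycling RG-like (9.37 to 14.9) and PyN-like cells (8.69 to 13.3) overlapped, and IN-like cells had 14.1 CPM on 11 UMIs. Lss was detected in 11.7% and 11.5% of RG-like cells, and in 6.37% and 4.33% once cells were thinned to 2500 UMIs, so its direction by genotype is read from the CPM and not from the share. Cyp51 had 132 and 99.7 CPM in RG-like cells, 99.4 and 75.6 CPM in cycling RG-like cells, 40.6 and 33.0 CPM in PyN-like cells and 24.5 and 20.4 CPM in IPC-like cells. Dhcr7, the final step, had 31.8 and 25.5 CPM in RG-like cells, 26.6 and 16.7 CPM in cycling RG-like cells, and 13.5 and 14.2 CPM in PyN-like cells.

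**Figure D1:**
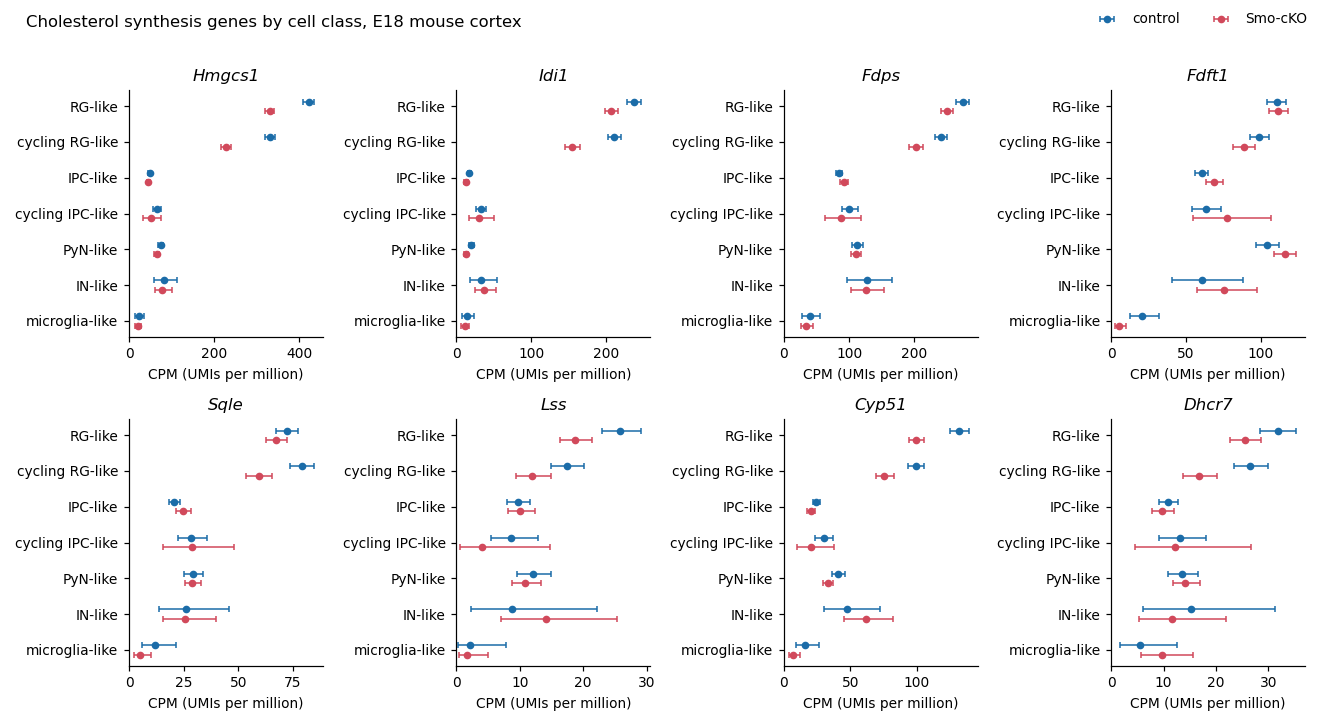
CPM (UMIs scaled to a fixed total of the class, linear axis from 0) of each of the 8 genes in 7 cell classes of the mouse cortex, control in blue and Smo-cKO in red. Points are 1 library each and bars are 95% exact Poisson intervals; for Hmgcs1 and Idi1 the intervals of RG-like and cycling RG-like cells lie above those of all other classes, and for Fdft1 those of RG-like and PyN-like cells overlap.

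Set against all genes, the RG-like over PyN-like contrast reached 1.5-fold for 7 of 8 members in control, where 25% of 10855 tested genes were that much higher in RG-like cells, and for 7 of 8 in Smo-cKO, where 26.3% of 11101 were. The median log2 ratio was 1.29 and 1.20 for the members and 0.00 and -0.02 for all genes. Fdft1 was the exception in both libraries. Against IPC-like cells, 8 of 8 members passed in each library (22.4% and 21.8% of all genes), with a median ratio of 3.37 and 2.73 and Fdft1 again lowest at 1.83 and 1.62. IPC-like cells were in turn below PyN-like cells for 8 of 8 members in each library. The median log2 ratio was -0.46 and -0.39 for the members and -0.05 and -0.04 for all genes. At least 1.5-fold lower were 3 of 8 in control (12.8% of all genes) and 2 of 8 in Smo-cKO (12.2%). Summed levels stood at 0.680 (0.647 to 0.715) and 0.726 (0.689 to 0.765) of those of PyN-like cells. Of RG-like, IPC-like and PyN-like cells, the IPC-like class had the lowest summed level.

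Within RG-like cells, the level went with the number of RG markers. In cells of 3000 to 8000 UMIs, a window that narrows the difference in depth, control cells with 3 to 4 RG markers had a summed 445 CPM, those with 5 to 6 markers 951 CPM and those with 7 to 9 markers 1581 CPM. In Smo-cKO the values were 431, 824 and 1266 CPM, so that the libraries overlapped in cells with 3 to 4 markers and not in those with more. Hmgcs1 went from 93.6 to 522 CPM in control between the lowest and the highest bin, Fdft1 from 54.6 to 130 CPM. In Smo-cKO Hmgcs1 went from 55.3 to 374 CPM while Fdft1 stayed between 111 and 119 CPM. Median UMIs per cell were also higher in the upper bins, from 3917 to 4854 in control and from 3956 to 6396 in Smo-cKO, and their part in the pattern was not tested.

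In CPM, cycling RG-like cells had less of most members than other RG-like cells. The ratio of the summed CPM was 0.846 (0.825 to 0.867) in control and 0.753 (0.729 to 0.777) in Smo-cKO. Below 1 were 7 of 8 members in control and 8 of 8 in Smo-cKO. The median log2 ratio was -0.22 and -0.41 for the members and -0.08 and -0.12 for all genes. Sqle was the exception in control, at 1.10 (0.991 to 1.21). Past 1.5-fold lower were 0 of 8 members in control (10.5% of all genes) and 2 of 8 in Smo-cKO (16.1%), namely Lss at 0.634 (0.481 to 0.827) and Dhcr7 at 0.657 (0.521 to 0.822). Counted per cell, the direction was the other way. Cycling RG-like cells had a mean of 7.96 and 8.38 member UMIs in control and Smo-cKO, other RG-like cells 6.70 and 7.94. The cycling cells were also deeper, with medians of 6375 and 9639.5 UMIs against 4613 and 6792.

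In ferret the class with the highest summed level was the same, with a much smaller distance to neurons. Of 7 members, 4 were highest in RG-like cells in set 1 and 6 in set 2, and the share of all genes is not given here. FDFT1 was highest in PyN-like cells in both sets. In set 1 SQLE was highest in cycling RG-like and DHCR7 in endothelium-like cells, each with an interval that overlapped the next class. Summed over 7 members, RG-like cells had 1211 CPM (1141 to 1283) in set 1 and 1472 CPM (1417 to 1529) in set 2, cycling RG-like cells 1056 and 1206 CPM, and PyN-like cells 901 and 1137 CPM. IPC-like cells had 500 and 673 CPM, IN-like cells 463 and 416 CPM, microglia-like cells 408 and 464 CPM, and endothelium-like cells 265 and 274 CPM. RG-like cells were thus 1.34-fold (1.26 to 1.43) above PyN-like cells in set 1 and 1.29-fold (1.24 to 1.35) in set 2. The mouse libraries had 3.22 (3.09 to 3.35) and 2.85 (2.74 to 2.96), summed over 8 members with Cyp51, which the ferret sums lack. The 4 intervals of the ferret sets and the mouse libraries do not overlap across species. However, species, stage, sorting, gene annotation, the genes summed and depth all differ between the tables and cannot be told apart.

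By gene, IDI1 had 181 and 241 CPM in ferret RG-like cells and 119 and 151 CPM in PyN-like cells. FDPS had 401 and 542 CPM against 263 and 365 CPM. HMGCS1 had 292 and 258 CPM against 211 and 226 CPM. All 3 were higher in RG-like cells in both sets, by much less than Idi1 and Hmgcs1 in mouse. SQLE had 128 and 191 CPM against 121 and 166 CPM, and LSS 90.4 and 86.2 CPM against 68.5 and 61.5 CPM. FDFT1 again had no excess in RG-like cells, at 101 CPM in both classes of set 1 and 119 against 148 CPM in set 2. In set 1 the RG-like intervals of SQLE (106 to 153 CPM) and DHCR7 (10.5 to 29.0 CPM) also held the PyN-like level. DHCR7 had 18.1 and 34.3 CPM against 16.9 and 19.7 CPM, the first of these from 17 UMIs.

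**Figure D2:**
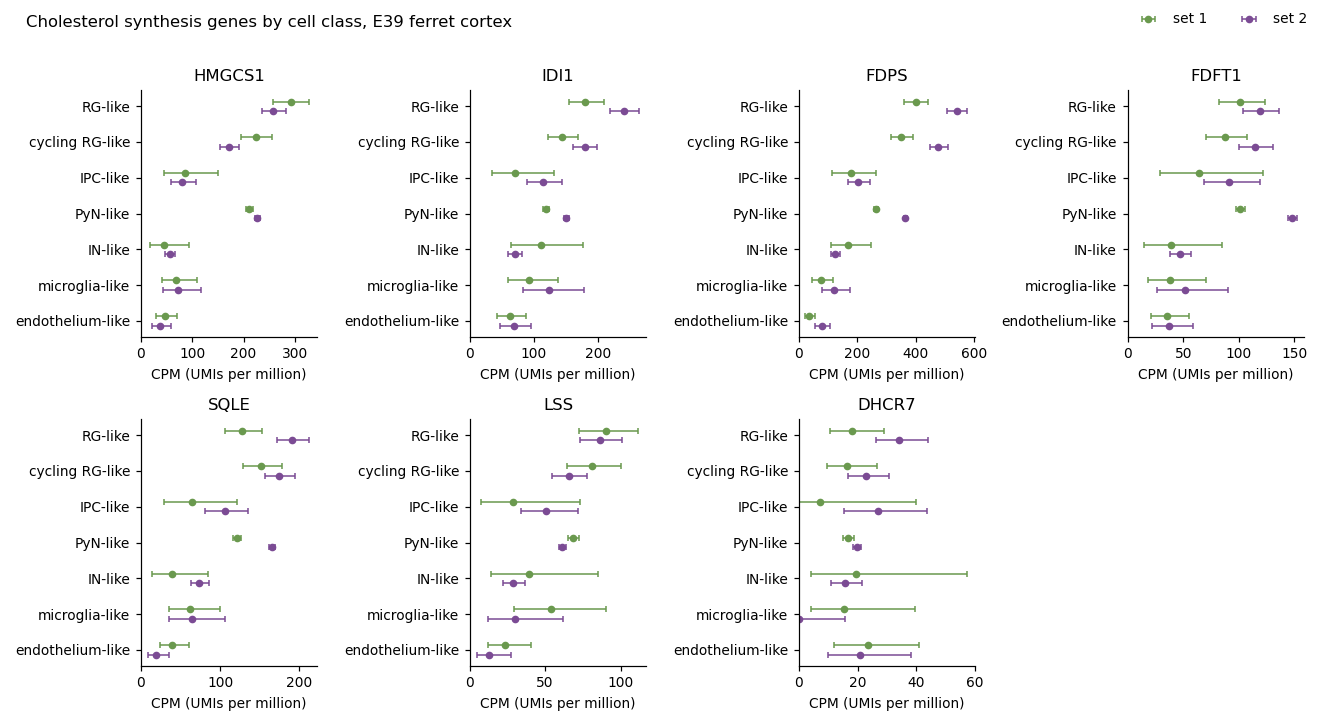
CPM (linear axis from 0) of the 7 genes in 7 cell classes of the E39 ferret cortex, barcode set 1 in green and set 2 in purple, with 95% exact Poisson intervals. For FDFT1 and SQLE the intervals of RG-like and PyN-like cells overlap in set 1. In set 2 they do not, with FDFT1 higher in PyN-like and SQLE higher in RG-like cells. For HMGCS1 and FDPS both classes lie above IPC-like and endothelium-like cells.

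Past 1.5-fold above PyN-like cells were 2 of 7 members in set 1 (IDI1 1.52, FDPS 1.52), where 24.9% of all tested genes were, and 2 of 7 in set 2 (IDI1 1.60, DHCR7 1.74), where 27.2% were. Both counts are near the background. FDPS in set 2 was just inside the limit at 1.48. Against IPC-like cells the counts were 6 of 7 in set 1 (23%), from 51 IPC-like cells and 70 summed UMIs only and with too few DHCR7 UMIs to count it, and 5 of 7 in set 2 (21.9%), with summed ratios of 2.42 (1.90 to 3.13) and 2.19 (1.97 to 2.44). IPC-like cells were again below PyN-like cells, at 0.555 and 0.592 of their summed level. The 2 sets come from 1 embryo, and RG-like cells differed between them by 0.886 (HMGCS1) to 1.89 (DHCR7), set 2 over set 1, with 1 of 7 members at least 1.5-fold higher and 0 of 7 lower, where 19.8% and 2.89% of all genes were.

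The summed level of the RG marker list was 24770 and 22112 CPM in ferret RG-like cells and 6355 and 4262 CPM in PyN-like cells, and 19585 and 23595 CPM against 701 and 842 CPM in mouse control and Smo-cKO. All 9 markers had UMIs in these classes. FABP7 made up 6280 and 4196 CPM of the ferret PyN-like values, against 511 and 650 CPM of Fabp7 in mouse. The other 8 markers lay the other way, with a sum of 74.6 and 66.4 CPM in ferret and 190 and 192 CPM in mouse PyN-like cells. Their part in the smaller ferret ratio was not tested.

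**Figure D3:**
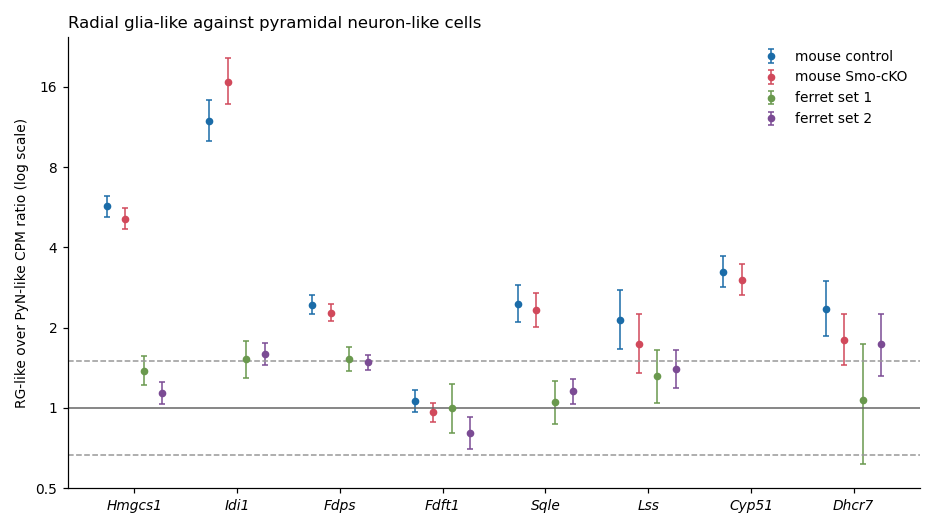
Ratio of CPM in RG-like over PyN-like cells (log axis) for each gene in the 2 mouse libraries and the 2 ferret barcode sets, with 95% intervals for counting error and dashed lines at 1.5-fold in either direction. Idi1 is highest in mouse at 11.9 and 16.8 and Fdft1 lies near or below 1 in all 4; ferret Cyp51 was not analysed here.

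In the Smo-cKO library the members were lower in RG-like cells than in control, by less than the limit. The ratio of the summed level was 0.851 (0.830 to 0.872), and 7 of 8 members were below 1. Cyp51 stood at 0.756 (0.698 to 0.818), Hmgcs1 at 0.784 (0.750 to 0.818), Idi1 at 0.872 (0.824 to 0.922) and Fdps at 0.914 (0.868 to 0.963). Lss had the lowest ratio, 0.725 (0.604 to 0.870), on the smallest counts. Dhcr7 stood at 0.802 (0.683 to 0.941), and the intervals of Sqle, 0.933 (0.843 to 1.03), and Fdft1, 1.01 (0.931 to 1.09), held 1. Past the limit were 0 of 8 members in either direction, where 4.91% of 11264 tested genes were at least 1.5-fold lower and 6.61% at least 1.5-fold higher. The median log2 ratio was -0.26 for the members and 0.00 for all genes.

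Cycling RG-like cells showed a larger distance. All 8 members were below 1, the summed ratio was 0.757 (0.733 to 0.782), and the median log2 ratio was -0.43 where that of all genes was -0.04. Dhcr7 at 0.629 (0.498 to 0.790) was past the limit, 1 of 8 where 5.94% of 10598 genes were that much lower and 4.45% that much higher. The count was between 0 and 3 under other settings, whose shares over all genes are not given here. Lss at 0.682 (0.514 to 0.896), Hmgcs1 at 0.687 (0.646 to 0.731) and Idi1 at 0.733 (0.679 to 0.790) came closest inside it, and Fdft1 at 0.893 (0.804 to 0.990) was the least different.

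In IPC-like and PyN-like cells the intervals of the summed ratio held 1. It was 1.03 (0.973 to 1.08) in IPC-like cells, with 4 members above 1 and 4 below, and 0.960 (0.913 to 1.01) in PyN-like cells, with 6 below. With 1 more marker asked of each cell the PyN-like value was 0.820. Past the limit were 0 of 8 members in IPC-like cells, where 2.64% of genes were lower and 5.4% higher, and 1 of 8 in PyN-like cells, where 3.02% were lower and 3.55% higher. It was Idi1 at 0.618 (0.474 to 0.804), on 136 and 103 UMIs. Idi1 was also the lowest in IPC-like cells, at 0.715 (0.563 to 0.904). Fdft1 was above 1 in IPC-like cells, at 1.14 (1.02 to 1.27), and in PyN-like cells, at 1.11 (1.01 to 1.23). IN-like cells (111 and 245) had a summed ratio of 1.07 (0.893 to 1.29), cycling IPC-like cells (370 and 67) 0.915 (0.766 to 1.09), and microglia-like cells (89 and 159) 0.704 (0.554 to 0.896), of which 4, 6 and 2 members had enough UMIs to be tested.

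**Figure D4:**
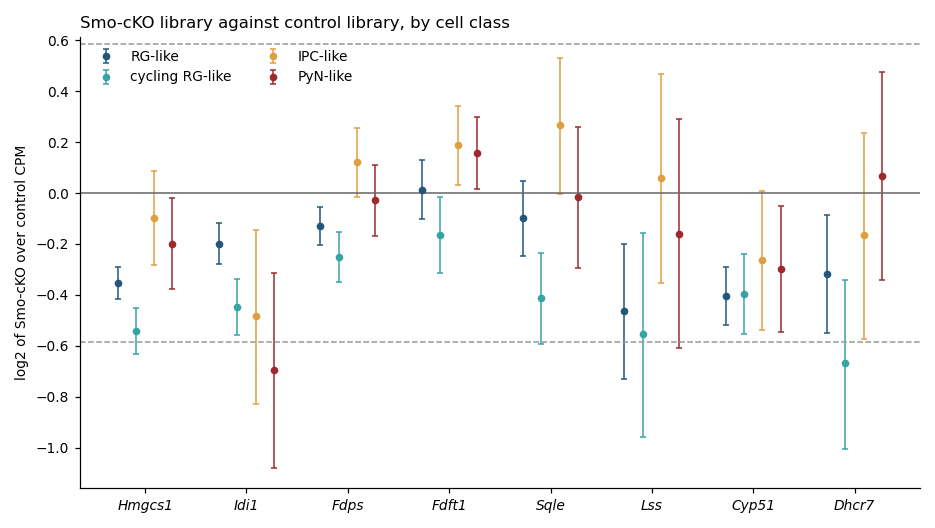
log2 of the Smo-cKO over control CPM ratio for each gene in 4 cell classes, 1 library per genotype, with 95% intervals for counting error and dashed lines at 1.5-fold in either direction. RG-like and cycling RG-like points lie below 0 except Fdft1 in RG-like cells at 0.01, and 2 points pass the lower line, Dhcr7 in cycling RG-like cells and Idi1 in PyN-like cells.

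Other quantities differed between the libraries too. RG-like cells with at least 1 microglia marker UMI were 1.17% of control and 4.61% of Smo-cKO, the summed microglia marker level was 2.86 and 10.4 CPM (11793 and 12183 CPM in microglia-like cells), and 7 and 8 of the 8 markers had a UMI, P2ry12 being at 0 in control. Without any cell that held such a UMI, an alternative chosen after the data were seen, the summed ratio was 0.850 in RG-like and 0.764 in cycling RG-like cells. Cells with at least 2 of the 6 markers of multipotent or glial progenitors were 8.59% of control and 3.62% of Smo-cKO RG-like cells, and 23.7% and 14.9% of cycling RG-like cells. The summed level of these markers was 166 and 110 CPM in RG-like and 302 and 225 CPM in cycling RG-like cells, with Sox10 at 0 in Smo-cKO, and their part in the result was not tested. The summed level of the 10 listed dissociation and stress genes was lower in Smo-cKO RG-like cells, at 0.778 (0.757 to 0.800). Of the 8 with enough UMIs, 3 were above 1 and 5 below, and their part in the result was not tested. In cells of 3000 to 8000 UMIs, 1 of 8 members passed the limit in RG-like cells and 2 of 8 in cycling RG-like cells. The share of all genes past the limit in this window is not given here, so these counts cannot be set against it.

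Most of the 12 other enzymes of the pathway were also higher in RG-like cells. In control RG-like cells 9 of 12 were at least 1.5-fold above PyN-like cells and 1 of 12 at least 1.5-fold below, and in Smo-cKO 8 of 12 and 1 of 12. Of all genes, 25% and 26.3% were that much higher and 22.2% and 24.4% that much lower. Msmo1, a methyl oxidase acting after Cyp51, had 180 CPM in control RG-like and 30.8 CPM in PyN-like cells, a ratio of 5.84 (5.06 to 6.77). Mvk (mevalonate kinase) had a ratio of 2.85 and Nsdhl 2.95. Ebp, a sterol isomerase, was the one lower in RG-like cells, at 8.28 against 13.7 CPM and a ratio of 0.605 (0.446 to 0.819). By genotype 0 of 12 passed the limit in RG-like cells, 11 of 12 were below 1 and the median log2 ratio was -0.17. In cycling RG-like cells 11 of 12 were below 1 as well, 1 of them past the limit (5.94% of all genes were that much lower), and the median was -0.40.

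Among 9 genes of sterol sensing and uptake, 8 had enough UMIs. Insig1, which holds the SREBP complex in the endoplasmic reticulum and is itself a sterol-regulated target, had 192 CPM in control and 128 CPM in Smo-cKO RG-like cells, a ratio of 0.666 (0.622 to 0.712), and was the 1 of 8 past the limit. Of all genes, 4.91% were that much lower in Smo-cKO RG-like cells. Srebf2, which encodes SREBP2, had 73.2 and 80.2 CPM, a ratio of 1.10 (0.994 to 1.21) whose interval held 1. In control, RG-like cells were 9.70-fold above PyN-like cells for Stard4, a sterol carrier (18.6 against 1.91 CPM), and 2.59-fold for Insig1, while Mbtps2, a protease that frees SREBP, was lower at a ratio of 0.517 (0.403 to 0.662).

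Of 8 genes of sterol efflux, storage and transport with enough UMIs in RG-like cells, 2 passed the limit, both upward in the Smo-cKO library. Of all genes, 6.61% were that much higher there and 4.91% that much lower. Apoe, the lipoprotein that carries cholesterol between brain cells, had 1216 CPM in control and 1997 CPM in Smo-cKO RG-like cells, a ratio of 1.64 (1.61 to 1.68), and Abca1, the transporter that loads it, 85.4 and 133 CPM, a ratio of 1.55 (1.43 to 1.69). Apoe was also higher in Smo-cKO in cycling RG-like (715 and 1193 CPM), IPC-like (130 and 206 CPM), PyN-like (37.96 and 61.6 CPM) and microglia-like cells (4018 and 7080 CPM), which is every class named here except IN-like cells (47.8 and 21.8 CPM, on 22 and 17 UMIs). Apoe is a microglial transcript as well. The summed microglia marker level was 2.86 CPM in control and 10.4 CPM in Smo-cKO RG-like cells, against 11793 and 12183 CPM in microglia-like cells. The part of microglial RNA in the Apoe ratio was not tested. The other 6 of 8 genes tested were inside the limit.

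All 11 genes of fatty acid synthesis were below 1 in Smo-cKO RG-like cells, with a median log2 ratio of -0.24 and 1 of 11 past the limit (4.91% of all genes were that much lower). The gene past the limit was Scd1, a desaturase, with 13.8 CPM in control and 7.16 CPM in Smo-cKO, a ratio of 0.519 (0.391 to 0.685). In control RG-like cells it was 8.53-fold above PyN-like cells, and Fads2, another desaturase, 3.56-fold. In ferret, 3 of 9 fatty acid genes in set 1 and 2 of 9 in set 2 were at least 1.5-fold higher in RG-like cells than in PyN-like cells, near the 24.9% and 27.2% of all genes.

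Across RG-like, cycling RG-like, IPC-like, PyN-like and IN-like cells and the cells of no class in both mouse libraries, 12 points in all, each member but Fdft1 tracked the mean of the other members. Pearson's r on log2(CPM + 1) was 0.993 for Hmgcs1, 0.993 for Fdps, 0.964 for Sqle, 0.955 for Idi1, 0.952 for Cyp51, 0.941 for Dhcr7, 0.864 for Lss and 0.520 for Fdft1. The points share libraries and differ in depth, and these values are a description. The spread of r over all compared genes is not given here, so the r of a member has no background. Of 1492 genes with enough UMIs at every point, the 10 most like the members' mean were Ptprz1 (0.975), Canx, Txndc17, Qk, 1110001J03Rik, Pdcd10, Mif, Ttyh3, Dad1 and Rac1 (0.932). Only 1 of the 8 members, Fdps, had enough UMIs to enter that ranking.

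**Figure D5:**
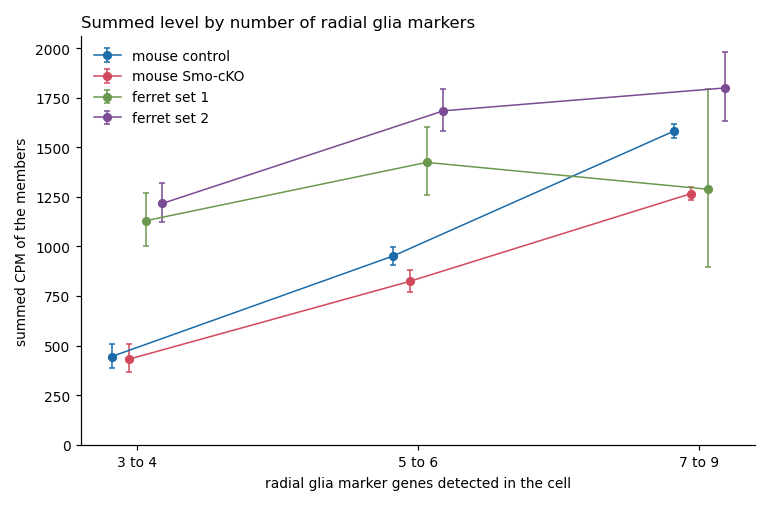
Summed CPM of the members (8 genes in mouse, 7 in ferret; linear axis from 0) in RG-like cells of 3000 to 8000 UMIs, by the number of RG marker genes detected in the cell, with 95% exact Poisson intervals. Mouse levels run from 445 to 1581 CPM in control and from 431 to 1266 CPM in Smo-cKO; the last point of ferret set 1 comes from 6 cells.

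In ferret the same bins gave 1129, 1424 and 1288 CPM in set 1, the last from 6 cells, and 1217, 1684 and 1799 CPM in set 2. The lowest bin was below the middle one in set 2, and their intervals overlapped in set 1.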

How the data were processed

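Counts of unique molecular identifiers (UMIs) per gene and cell were used as the authors deposited them, in 1 table of 17170 genes for mouse and 1 of 22008 genes for ferret, not normalized. The submitters' processing notes name Cell Ranger, StringTie, Seurat 3 and build mm10; which tool and build served the ferret is not given in the sources used here. Cells were kept at 750 to 5000 genes and under 10% mitochondrial UMIs. The 2 labelled ferret samples could not be tied to the 2 barcode suffixes. Doublets were not called; leaving out the top 5% of cells by UMIs was an alternative.

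A cell took the class whose marker list had the largest share of genes detected, with at least 3 genes and no tie. The markers were listed first and this scoring rule was set after the files were seen. Classes needed 50 cells in each library. The members and gene lists were chosen with earlier results of these data known. Genes were tested at 50 or more UMIs over both sides of a ratio. Of each list, genes past 1.5-fold in RG-like cells were to be named, or of these the 4 with the largest ratio; Ebp, Srebf2 and Mbtps2 were named after their values were seen, and some genes of the lists are not reported here. The ratio script was tested on simulated data. Alternatives were another scaling, a total without mitochondrial, ribosomal and haemoglobin genes, 1 more marker, a depth window, all deposited cells, equal weight per cell, a 2-fold limit, no UMI minimum and 1 ferret set at a time. The work was done with pandas 2.3.3, scipy 1.17.1 and numpy 2.4.6 under Python 3.11.15, and plots with matplotlib 3.10.9.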

Additional observations from a re-analysis of the deposited data

Results flagged for a closer look

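Fdft1, squalene synthase, was the member whose genotype ratio (Smo-cKO over control) lay on opposite sides of 1 in different classes with neither counting interval holding 1. It was above 1 in IPC-like cells (1.14), PyN-like cells (1.11) and cells of no class (1.22), and below 1 in cycling RG-like cells (0.893). The microglia-like ratio was 0.252. There is 1 library per genotype, and the difference between classes was not tested. The microglia-like value rests on 19 control and 9 Smo-cKO UMIs, under the minimum of 50 UMIs used elsewhere, and carries no weight here. With 1 more marker gene asked of each cell, the PyN-like ratio of Fdft1 was 0.969, below 1.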

How the results depend on the processing

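No paired analysis was possible because there is 1 library per genotype and the labels give no replicate numbers that pair samples. Of 567 alternative values, 118 of summed levels, counts and shares and 386 of single members and background shares stayed within the counting interval or count range of the value reported, and 35 and 28 moved. Of 519 alternative ratios 16 lay on the other side of 1, of which 0 were past the 1.5-fold limit as reported and 1, Fdft1 in PyN-like cells (0.969 with 1 more marker), had an interval without 1. The summed genotype ratio ranged from 0.815 to 0.855 in RG-like cells and from 0.737 to 0.802 in cycling RG-like cells, with 7 or 8 and with 8 members below 1. Equal weight per cell gave 0.815 in RG-like and 1.02 in PyN-like cells, and 3 members past the limit in cycling RG-like cells and 0 in PyN-like cells. Cells of 3000 to 8000 UMIs gave 0.793 in cycling RG-like and 0.906 in PyN-like cells, with 1 member past the limit in RG-like and 2 in cycling RG-like cells. Leaving out the top 5% of UMIs gave 0.802 and 0 members in cycling RG-like cells, and 1 more marker gave 0.820 in PyN-like cells. A 2-fold limit left 0 members in cycling RG-like and 0 in PyN-like cells. The shares of all genes past the limit under these alternatives are not given here, so the counts of members cannot be set against them. Of class ratios, RG-like over PyN-like went to 3.01 in Smo-cKO with the depth window and to 2.67 in control with 1 more marker, and without ferret RG-like cells at exactly 3 markers (chosen after the data were seen) to 1.44 in set 1, 1.38 in set 2 and 1.41 over both sets. RG-like over IPC-like went to 4.51 in control with mitochondrial, ribosomal and haemoglobin genes out of the total and to 4.96 with the depth window, and with 1 more marker to 3.99 in set 1, 2.67 in set 2 and 2.68 over both. Without one set or the other it was 2.19 to 2.42. Cycling RG-like over RG-like went to 0.815 in control without those genes in the total. With the depth window it went to 0.895 in control, 0.841 in Smo-cKO, 0.770 in set 2 and 0.776 over both sets; without the cells at exactly 3 markers it was 0.770 and 0.778. Thinning to 2500 UMIs took the share of RG-like cells with Hmgcs1 to 53.4% in control and 44.9% in Smo-cKO, and with Lss to 6.37% and 4.33%. The cause of these moves was not tested. Depth limits Lss and Dhcr7 outside RG-like cells and every member in microglia-like, IN-like and ferret IPC-like cells.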
